A study of Homo sapiens with 24 samples.

Results

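The libraries described here came from OE33 cells transfected with HA-TRIM15, a plasmid for HA-tagged TRIM15, or with empty vector (EV). OE33 is an established cell line from an adenocarcinoma of the lower esophagus. The 6 libraries, 3 per group, were chosen by their sample labels and are 6 of the 24 libraries of the series. Both groups were transfected with plasmid DNA and collected 48 h later, so exposure to vector and transfection is common to treated and control cells. The series as a whole followed TRIM15 from xenografts of obese mice to the transcription factor YY2 and the mitochondrial protein FOXRED1, and the question for these libraries was which transcripts change when TRIM15 is overexpressed. The model has limits: it is a single line, the expression is transient, and the share of cells that took up the plasmid is not given in the sources used here. In such bulk libraries, fewer cells that transcribe a gene and less of its RNA per cell cannot be told apart. Nothing states that the 3 samples of a group came from separate cultures, so p-values measure the spread between these samples, which may be technical.

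TRIM15 belongs to the tripartite motif proteins, E3 ubiquitin ligases that attach ubiquitin to other proteins and so mark them for degradation or change their activity. Several members of the family act on the signaling chains that lead from cytokine, viral RNA and toll-like receptors to NF-κB and interferon. NF-κB is a family of transcription factors held in the cytoplasm by inhibitor proteins. Once freed, it switches on chemokines, cytokines and also the genes of its own inhibitors, so that an active pathway can be read from the RNA of its targets and of its feedback.

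The HA-TRIM15 libraries held between 15534233 and 20901782 counts and the EV libraries between 20108463 and 26479130. Levels are in CPM, which divides a gene's counts by the TMM-normalized size of its library. Differences are log2 fold changes of HA-TRIM15 over EV with their standard error (SE), and a gene is called higher or lower at an adjusted p under 0.05. Replicates of the EV group differed little more than sampling noise allows (chi-square per gene 1.55 to 1.57, where sampling alone gives a value near 1), and those of the HA-TRIM15 group differed more (1.94 to 4.67), with replicate 1 farthest from the other two. The 25 markers of an epithelial adenocarcinoma line all had counts in every library and summed to 13998 to 15326 CPM with HA-TRIM15 and 14571 to 14903 CPM with EV. ALB, the albumin gene of hepatocytes, had 0, 0 and 32 counts with HA-TRIM15 and 31, 60 and 101 with EV. Of 58 hepatocyte markers, 22 to 39 had at least 1 count in an HA-TRIM15 library and 44 to 51 in an EV library, and 17 were expressed enough to be tested. Of these, 5 were lower with HA-TRIM15, HP, FGA, FGB and ALB among them, and were set aside. SAA2, an acute-phase gene, was the exception, with 12.0 ± 0.957 CPM against 7.46 ± 0.296 CPM (SD, n = 3). The part of this liver trace in other results was not tested, but without the whole hepatocyte list the calls for other genes came to 1972 higher and 1495 lower. All 37 mitochondrial genes were listed at 0 in the 6 libraries, so the electron transport chain can be read from its nuclear genes alone.

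TRIM15 checks the labels. It had 111, 130 and 181 counts in the HA-TRIM15 libraries and none in the EV libraries. These are 5.41, 8.45 and 11.4 CPM, a 2.12-fold range between libraries of the same group. The mean of 8.43 ± 3.02 CPM (SD, n = 3) was at least 64.5-fold higher than EV at the limit of 3 counts per EV library. Reads of the plasmid and of the chromosomal gene cannot be told apart in these counts. TRIM26, POLR1H, TRIM39 and RPP21, which lie near TRIM15 in the major histocompatibility region, had between 0 and 6 counts in any library, and whether reads of this region were counted in full was not tested. PPP1R11, another neighbor, had 243 counts in HA-TRIM15 replicate 1 and 22 to 32 in the other 5 libraries. Its log2 difference of 2.30 fell to 0.67 without that replicate.

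Of 15745 genes tested, 12.5% were higher and 9.53% lower with HA-TRIM15, and the 2 groups did not overlap for 37.7%. Most of these differences were small: less than 1.2-fold for 1242 genes called higher and 1030 called lower, and 1.2- to 1.5-fold for another 522 and 384. The median log2 difference of all genes was -0.0065. The calls followed transcript length and base composition. In 5 equal bins by the length of the longest transcript, 3.98% were higher and 8.18% lower in the shortest bin. In the longest bin these were 23.2% and 6.82%, and the median log2 differences of the 2 bins were -0.071 and 0.049. When genes were cut into 5 equal bins by the GC content of the longest transcript, 27.0% were higher and 1.62% lower in the bin of lowest GC content, and in the bin of highest GC content 2.94% were higher and 22.2% lower, with median log2 differences of 0.088 and -0.12. An offset for GC content and length levelled this, to 12.7% higher and 9.90% lower in the lowest bin and 9.70% and 7.57% in the highest, and changed which genes were called: 1386 of the 1973 higher genes (70.2%) and 861 of the 1501 lower genes (57.4%) were called with it as well. Counts of list members called with this offset are given after those without it. For a single gene, differences near 0.1 on the log2 scale are of the size of the GC trend. Calls also followed level. In 5 equal bins by mean CPM, 2.49% were higher and 1.78% lower in the lowest bin, and 27.8% and 14.1% in the highest. The shares over all genes, set beside those of lists, are not matched for level.

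**Figure D1:**
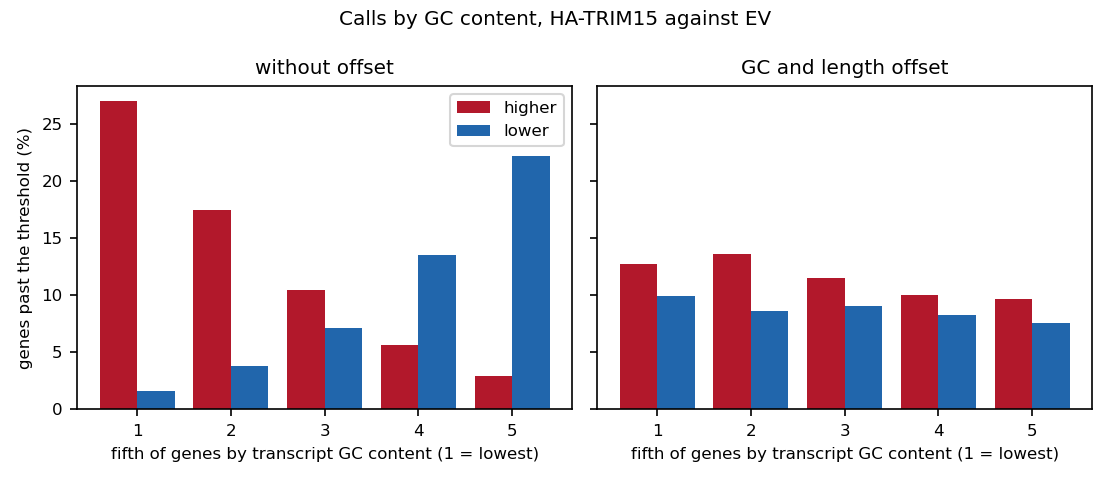
Percentage of tested genes called higher (red) or lower (blue) with HA-TRIM15, in 5 equal bins of genes ordered by the GC content of their longest transcript. Without an offset the higher calls fall from 27.0% to 2.94% across the bins and the lower calls climb from 1.62% to 22.2%, and with the GC and length offset both are nearly level.

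Several chemokines, most of which draw neutrophils, rose with HA-TRIM15. CXCL8, which encodes interleukin 8, reached 73.5, 76.8 and 76.1 CPM with HA-TRIM15 against 25.1, 26.1 and 25.4 CPM with EV. The groups lay far apart, with a log2 difference of 1.56 (SE 0.0443, adjusted p = 5.41e-12). CCL20, which draws dendritic cells and T cells, had 64 to 100 counts with HA-TRIM15 and 32 to 35 with EV, a log2 difference of 1.76 (SE 0.175, adjusted p = 6.77e-06). CXCL2, CXCL3 and CXCL1, close relatives of CXCL8, were higher by 0.83, 0.72 and 0.71, from 50.6, 39.2 and 49.7 to 89.8, 64.6 and 81.6 CPM. Of 13 chemokines tested, these 5 were higher (38.5%, beside 12.5% of all genes) and none was lower, with a median of 0.60. CXCL6, a neutrophil chemokine too, was at 6.79 ± 0.288 and 6.09 ± 0.561 CPM (SD, n = 3) and did not pass (log2 difference 0.16, adjusted p = 0.308). The remaining 10 of 23 listed chemokines were too low to test. CXCL16, a chemokine bound to the cell membrane, stood at 99.0 ± 2.50 and 94.0 ± 3.02 CPM (SD, n = 3) and did not pass (log2 difference 0.08, adjusted p = 0.182). With the GC and length offset 7 were higher, CXCL16 among them, and the median was 0.54.

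The sequences just upstream of 7 of the genes that rose are shown because they hold a binding motif. It is κB in 6 of them and AP-1 in CXCL8, which has no full match to the κB consensus used here, and short stretches around these motifs are part of the sequences. They are RefSeq sequences on GRCh38.p14, read 5′ to 3′ on the strand of the gene and ending at the last base before the annotated start, and capitals mark the match, to the κB consensus bound by NF-κB on either strand or, in CXCL8, to the AP-1 motif TGANTCA:
CXCL8: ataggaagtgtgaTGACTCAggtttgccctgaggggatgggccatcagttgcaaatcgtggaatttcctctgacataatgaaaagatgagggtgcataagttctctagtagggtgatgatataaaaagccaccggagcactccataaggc
CXCL1: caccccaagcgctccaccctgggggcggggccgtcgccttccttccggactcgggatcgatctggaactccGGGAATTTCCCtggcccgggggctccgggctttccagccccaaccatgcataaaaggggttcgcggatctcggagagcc
CXCL2: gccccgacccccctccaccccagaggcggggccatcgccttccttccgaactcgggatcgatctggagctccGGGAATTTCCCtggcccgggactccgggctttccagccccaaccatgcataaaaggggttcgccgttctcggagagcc
CCL20: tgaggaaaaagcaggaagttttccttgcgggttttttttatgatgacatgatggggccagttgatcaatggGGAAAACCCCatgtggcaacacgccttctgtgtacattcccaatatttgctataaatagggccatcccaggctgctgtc
IL6: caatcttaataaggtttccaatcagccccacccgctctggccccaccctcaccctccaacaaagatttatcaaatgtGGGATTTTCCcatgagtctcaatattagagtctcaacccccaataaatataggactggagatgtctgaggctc
TNFAIP3: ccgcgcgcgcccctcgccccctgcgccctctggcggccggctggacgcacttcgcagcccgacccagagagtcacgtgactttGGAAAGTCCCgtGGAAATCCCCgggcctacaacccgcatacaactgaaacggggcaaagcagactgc
NFKBIA: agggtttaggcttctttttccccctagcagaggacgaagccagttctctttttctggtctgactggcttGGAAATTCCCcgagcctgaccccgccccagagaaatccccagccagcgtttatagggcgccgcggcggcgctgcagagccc

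These windows lie at chr4:73740419-73740568 (+) for CXCL8, chr4:73869243-73869392 (+) for CXCL1, chr4:74099196-74099345 (-) for CXCL2, chr2:227813692-227813841 (+) for CCL20, chr7:22727050-22727199 (+) for IL6, chr6:137867109-137867258 (+) for TNFAIP3 and chr14:35404750-35404899 (-) for NFKBIA. CXCL1 and CXCL2 hold the same 11 letters, in which the consensus matches both strands 1 base apart. That κB consensus is GGGRNNYYCC, where R is A or G, Y is C or T and N is any base. CXCL8 holds tggaatttcc, which departs from it in the first letter only. Such near matches were not counted, so a gene without a match can still hold a κB site. Over the 250 bases upstream, searched on both strands, the κB consensus was found in 9.57% of 27305 annotated promoters and in 11.7% of the 10846 tested genes that have one. Among the chemokines it was found in 4 of 5 called higher and in 4 of 5 not called, among the NF-κB genes in 6 of 16 higher and 1 of 8 not called, and among the cytokines in 6 of 12 higher and 2 of 6 not called. Of all genes called higher 11.6% held it and of those called lower 12.0%, against 19.1% of the 141 that rose at least 1.5-fold. The AP-1 motif was found in 4.19% of tested genes and in 12.8% of those 141. A match is a description of the letters and not evidence of binding. Chemokines, cytokines and the inhibitors of NF-κB are known as its targets, so the motif is not independent of the choice of these lists.

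Most genes on the list of NF-κB and its feedback rose too. TNFAIP3 encodes A20, an enzyme that edits ubiquitin chains to end the signal, and it reached 1320, 1318 and 1341 CPM with HA-TRIM15 against 843, 837 and 839 CPM with EV. Its log2 difference was 0.66 (SE 0.0257, adjusted p = 1.71e-10), far wider than the spread within either group. BIRC3, a ubiquitin ligase of the TNF receptor complex, rose by the same 0.66 from 502 ± 6.73 to 796 ± 21.9 CPM (SD, n = 3). CYLD, which removes ubiquitin chains from the pathway, rose by 0.58, TRAF1, an adapter of TNF receptors, by 0.96, the inhibitor gene NFKBIA by 0.42 and the subunit gene REL by 0.52. Of 29 genes tested 17 were higher (58.6%) and 2 lower (6.90%), with a median of 0.20. The 2 lower genes, IKBKB and IKBKE, encode kinases that act upstream of NF-κB, each at -0.17. RELA, the subunit with the best known transcriptional activity, had 192 ± 3.73 and 186 ± 0.722 CPM and did not pass (adjusted p = 0.302). With the GC and length offset 20 were higher and 1 lower.

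Many cytokine genes rose as well, several of them from low levels. IL6, encoding interleukin 6, had 74, 55 and 53 counts with HA-TRIM15 and 27, 19 and 27 with EV, a log2 difference of 1.74 (SE 0.185, adjusted p = 1.27e-05). CSF3, the growth factor of neutrophils, rose from 2.56 to 7.24 CPM (adjusted p = 5.03e-07), and IL11, a relative of IL6, by 1.13 from 2.76 to 6.00 CPM. IL1A, an alarm cytokine of epithelia, was more abundant at 57.3, 59.7 and 61.9 CPM against 32.9, 33.3 and 33.9 CPM, with no overlap and a log2 difference of 0.83 (SE 0.0460, adjusted p = 1.11e-08). IL1B, its relative made by macrophages, did not pass, at 8.82 ± 0.723 and 10.1 ± 0.420 CPM (adjusted p = 0.154). CSF2, the growth factor of granulocytes and macrophages, rose by 0.63 and IFNL1, an interferon of epithelia, by 0.98. Of 24 genes tested 14 were higher and 1 lower, with a median of 0.34. The lower one was LIF, at -0.11, a call that ended with the GC offset. After the GC and length offset 14 were higher and none lower. Without HA-TRIM15 replicate 3 or any 1 of the EV replicates 10 were higher.

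Among the receptors and adapters of cytokines some members rose. TNFRSF9, a TNF receptor found mainly on activated lymphocytes, rose by 1.17 (SE 0.154), from 2.22 to 4.99 CPM. IL6ST, the chain through which IL6, IL11 and LIF signal, went from 253 ± 3.74 to 307 ± 10.2 CPM (SD, n = 3), a log2 difference of 0.28, and OSMR, its partner for oncostatin M, rose by 0.24. TNFRSF1A, the main TNF receptor, was lower at -0.14, which no longer passed with the GC offset. Of 44 receptors and adapters tested 15 were higher and 1 lower, with a median of 0.068, and with the GC and length offset 17 and 1. Leukocyte markers summed to 11.3 to 12.8 CPM with HA-TRIM15 and 11.0 to 11.6 CPM with EV, and 4 of 20 were expressed enough to test.

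Among the interferon-stimulated genes a few members rose clearly. IFIT2, which binds foreign RNA, reached 399, 410 and 398 CPM with HA-TRIM15 and 214, 227 and 225 CPM with EV, a log2 difference of 0.86 (SE 0.0330, adjusted p = 1.71e-10). RSAD2, the antiviral enzyme viperin, rose by 0.86 from 36.3 to 66.0 CPM, SAMD9, another antiviral factor, by 0.50 and IFIH1, a sensor of viral RNA, by 0.33. OAS3, another sensor, did not pass, at 225 to 232 and 221 to 222 CPM (adjusted p = 0.251). IRF9, a subunit of the factor that interferon activates, had 29 to 49 counts against 69 to 86 and was lower (log2 difference -0.54, SE 0.156, adjusted p = 0.0222). Of 61 genes tested 20 were higher (32.8%) and 2 lower (3.28%), with a median of 0.090, and with the GC and length offset 16 and 3. Leaving out 1 library gave between 14 higher, without EV replicate 3, and 24 higher, without HA-TRIM15 replicate 1. Both groups had received plasmid DNA. Its uptake in each group is not given in the sources used here, and its part in these calls was not tested.

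**Figure D2:**
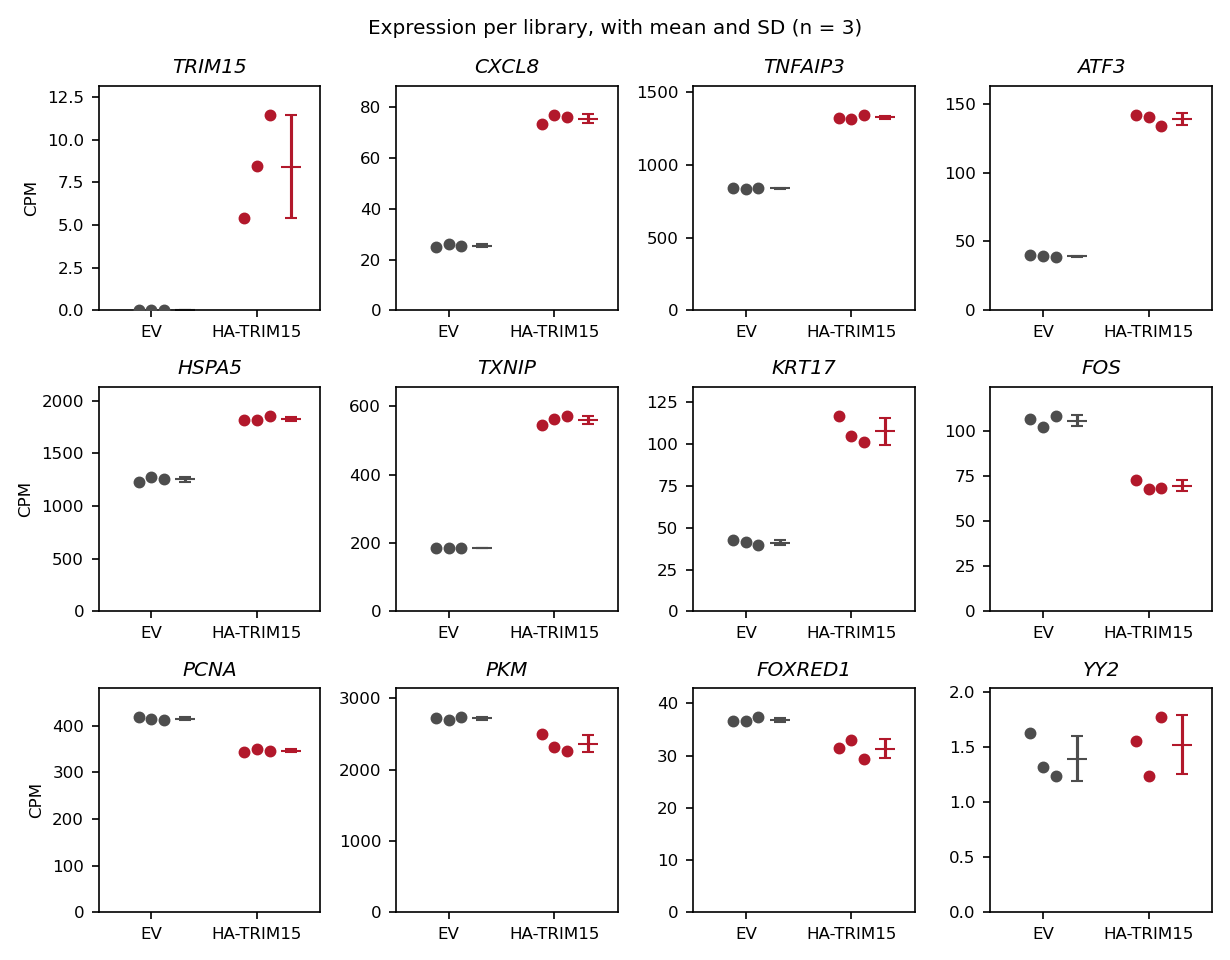
Level of 12 genes in each library in CPM, on axes that start at 0, with EV in grey and HA-TRIM15 in red. Points are single libraries and the bar beside them is the mean with its SD (n = 3); the groups do not overlap for any gene shown but YY2, whose libraries lie between 1.24 and 1.77 CPM.

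Most of the listed AP-1 and early response factors rose, and FOS was lower. ATF3, a repressor induced by many stresses, reached 142, 141 and 134 CPM with HA-TRIM15 against 39.9, 39.1 and 38.9 CPM with EV. Its log2 difference was 1.82 (SE 0.0402, adjusted p = 2.07e-13). JUN, a subunit of AP-1, reached 461, 430 and 410 CPM against 214, 201 and 205 CPM, a log2 difference of 1.07 (SE 0.0415, adjusted p = 1.71e-10). FOS, the usual partner of JUN, went the other way, with 72.9, 67.8 and 68.3 CPM against 106, 102 and 108 CPM and a log2 difference of -0.60 (SE 0.0415, adjusted p = 1.59e-07). It had the smallest p of all genes called lower. KLF10, a repressor induced by TGF-β, rose by 1.01 and its relatives KLF4 and KLF6 by 0.62 and 0.41. CCN2, a target of YAP and TGF-β, was lower at -0.43. Of 28 genes tested 16 were higher and 3 lower, with a median of 0.21, and with the GC and length offset 19 were higher and 2 lower.

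EREG, HBEGF and AREG, growth factors of the EGF family that act through ERK, rose. EREG, epiregulin, was at 1935, 2059 and 2148 CPM with HA-TRIM15 and 1506, 1457 and 1473 CPM with EV, a log2 difference of 0.47 (SE 0.0339, adjusted p = 2.11e-07). HBEGF rose by 0.60 and amphiregulin, AREG, by 0.30. The ERK phosphatase gene DUSP5 rose by 0.37, while DUSP6, a second one, was lower at -0.27. Of 26 genes of ERK feedback and output 9 were higher and 3 lower, with a median of 0.045, and with the GC and length offset 9 and 2. MYC, which growth factors commonly induce, had 252 ± 6.74 and 247 ± 1.57 CPM (adjusted p = 0.486).

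The unfolded protein response, by which the endoplasmic reticulum adds chaperones when proteins misfold there, had 18 of 30 genes higher and none lower, with a median of 0.17. HSPA5, the chaperone BiP, reached 1819, 1814 and 1853 CPM against 1228, 1278 and 1260 CPM, a log2 difference of 0.54 (SE 0.0263, adjusted p = 2.85e-09). DNAJB9, a helper of BiP, rose by 0.75, HERPUD1, which feeds misfolded proteins to degradation, by 0.65, and ERN1, the sensor IRE1, by 0.40. PPP1R15A, which restarts translation after stress, rose by 1.02 from 173 ± 4.61 to 350 ± 19.3 CPM (SD, n = 3). ATF6, a second sensor, had 87.2 ± 5.04 and 81.2 ± 1.76 CPM and did not pass (adjusted p = 0.111). With the GC and length offset 18 were higher and none lower, with a median of 0.13, while without HA-TRIM15 replicate 1 22 were higher and 3 lower. The upstream sequences of HSPA5 at chr9:125241344-125241543 (-) and of the chaperone gene HSP90B1 at chr12:103930210-103930409 (+) are shown because both hold the ER stress element, in capitals, which HSP90B1 has once on each strand:
HSPA5: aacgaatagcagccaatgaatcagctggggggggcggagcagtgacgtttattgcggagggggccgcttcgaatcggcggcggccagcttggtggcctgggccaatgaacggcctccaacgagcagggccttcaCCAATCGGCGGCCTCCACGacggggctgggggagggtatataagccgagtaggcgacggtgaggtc
HSP90B1: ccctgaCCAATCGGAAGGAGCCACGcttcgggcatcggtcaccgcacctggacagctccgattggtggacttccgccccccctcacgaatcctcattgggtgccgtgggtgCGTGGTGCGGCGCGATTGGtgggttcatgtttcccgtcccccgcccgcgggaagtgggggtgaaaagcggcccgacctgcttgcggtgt

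These are RefSeq sequences on GRCh38.p14 as well. The element occurs in 22 of 27305 promoters (0.0806%) and in 6 of 28 of this list. HSPA5, HSP90B1, CALR, CANX and XBP1 hold it among the 16 called higher, and CRELD2 among the 12 not called. The list is made of known genes of this response, so the motif is not independent of its choice. HSP90B1 itself rose by 0.28.

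Of 26 genes that ATF4 switches on when amino acids run short 14 were higher and 1 lower, with a median of 0.19. The GC and length offset gave 16 higher and none lower, but without EV replicate 2 or EV replicate 3 only 8 and 9 were called higher. SLC3A2, the heavy chain of amino acid transporters, reached 473, 434 and 423 CPM against 352, 349 and 346 CPM, a log2 difference of 0.35 (SE 0.0380, adjusted p = 1.64e-05). ATF4 itself rose by 0.24, the stress gene DDIT4 by 0.31 and the transporter SLC38A2 by 0.23. SLC7A11, the light chain that imports cystine with SLC3A2, was at 204 ± 9.12 and 194 ± 4.98 CPM (SD, n = 3; log2 difference 0.07, adjusted p = 0.22), and its sign turned with the GC offset. The listed heat shock chaperones did not follow those of the endoplasmic reticulum: 2 of 19 were higher and 6 lower, with a median of -0.083. HSPA8, the constitutive HSP70, was at 1847 ± 34.6 against 2107 ± 32.6 CPM (log2 difference -0.19, adjusted p = 0.000129), and HSPE1, a mitochondrial chaperonin, was lower at -0.27. HSP90AA1 did not pass (adjusted p = 0.527). The GC and length offset gave 3 higher and 12 lower chaperones, and without HA-TRIM15 replicate 2, EV replicate 2 or EV replicate 3 there were 3 lower.

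Some genes of growth arrest and cell death rose. GADD45A, an inhibitor of the cell cycle, reached 138, 135 and 126 CPM with HA-TRIM15 against 54.5, 55.5 and 55.9 CPM with EV, a log2 difference of 1.27 (SE 0.0422, adjusted p = 4.22e-11). GADD45B rose by 1.17 and PMAIP1, the cell death gene NOXA, by 0.91. MDM2, a ubiquitin ligase, rose by 0.32, whereas BAX, which permeabilizes mitochondria in cell death, was lower at -0.25. Of 27 genes listed as damage response targets, a list made of targets of p53, 13 were higher and 3 lower, with a median of 0.12. With the GC and length offset 13 were higher and 2 lower. Of 25 genes of the BCL2 family and caspases 7 were higher and 3 lower, with a median of 0.055. TXNIP, which restrains glucose uptake and binds thioredoxin, is named after its values were seen because it had the smallest p of all genes, with 547, 563 and 571 CPM against 186, 186 and 185 CPM. Its log2 difference was 1.59 (SE 0.0307, adjusted p = 5.50e-14). ARRDC4, its relative with shared regulation, is named for the same reason and rose by 1.14.

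Many genes of DNA replication and mitosis were lower by small amounts. PCNA, the sliding clamp of DNA polymerase, had 343, 350 and 345 CPM with HA-TRIM15 and 418, 414 and 412 CPM with EV, a log2 difference of -0.26 (SE 0.0287, adjusted p = 1.64e-05). MCM5, part of the replicative helicase, was lower at -0.36, LIG1, a DNA ligase, at -0.37 and UHRF1, which maintains DNA methylation, at -0.30. Of 57 replication genes 27 were lower (47.4%, beside 9.53% of all genes) and none higher, with a median of -0.11. RRM1, a subunit of ribonucleotide reductase, had 184 ± 3.10 and 189 ± 3.50 CPM (adjusted p = 0.426). The kinase PLK1 and the phosphatase CDC25B, both needed to enter mitosis, were lower at -0.26 and -0.27. Of 47 genes of mitosis and the spindle checkpoint 19 were lower and 2 higher, ECT2, an organizer of cytokinesis at 0.17, being one of the latter. MKI67, the proliferation marker Ki-67, did not pass (adjusted p = 0.439), and CCND1, cyclin D1, rose by 0.15. The GC and length offset left 22 replication genes and 26 mitosis genes lower. Without HA-TRIM15 replicate 2 or EV replicate 1 there were 16 and 17 replication genes lower, and without EV replicate 1 or EV replicate 3 there were 12 mitosis genes. Of 60 genes of ribosome biogenesis 16 were lower and 4 higher, with a median of -0.032, and the 16 became 7 without HA-TRIM15 replicate 2 and 9, 8 and 6 without EV replicate 1, 2 and 3.

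Some genes of carbohydrate metabolism were lower too. PKM, the pyruvate kinase of most tumor cells, had 2500, 2320 and 2270 CPM with HA-TRIM15 and 2730, 2700 and 2736 CPM with EV, a log2 difference of -0.20 (SE 0.0320, adjusted p = 0.000427). Of 28 glycolysis genes tested 15 were lower and none higher, with a median of -0.13. PFKL, a phosphofructokinase, was lower at -0.24, and the call of TPI1, triose phosphate isomerase, at -0.15 ended with the GC and length offset, under which 11 glycolysis genes were lower. Without EV replicate 1 or EV replicate 3 there were 8 lower, and without EV replicate 2 or HA-TRIM15 replicate 2 there were 9. One of the 15 is also on the hepatocyte list. In the pentose phosphate pathway TKT, TALDO1 and PGD were lower at -0.27, -0.18 and -0.18. TXNRD1, thioredoxin reductase, was the 1 of 13 pentose phosphate and NADPH genes that rose, by 0.14. In the TCA cycle 9 of 27 were lower and none higher, SUCLG1 at -0.19 and IDH3G at -0.21 among them, and MDH2 did not pass (adjusted p = 0.0523). The GC and length offset left 7 lower in the TCA cycle, and without HA-TRIM15 replicate 2 or any 1 of the EV replicates 3 were lower.

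The nuclear genes of the respiratory chain had no member called higher. NDUFS3, a core subunit of complex I, had 38.0, 36.4 and 34.8 CPM with HA-TRIM15 and 45.0, 44.9 and 44.0 CPM with EV, a log2 difference of -0.29 (SE 0.0476, adjusted p = 0.00063). NDUFV1, another core subunit, was lower at -0.22 and NDUFB9, an accessory subunit, at -0.15. NDUFA9, another accessory subunit, at -0.23, did not pass (adjusted p = 0.061). NDUFV2, with 27 to 55 counts in each library, had a log2 difference of 0.09 (adjusted p = 0.773) that turned sign without HA-TRIM15 replicate 1. Of 34 subunits 11 were lower (32.4%), with a median of -0.14. In complexes III to V 15 of 35 were lower, COX5B of cytochrome oxidase at -0.34, UQCRC1 of complex III at -0.25 and ATP5MC1 of ATP synthase at -0.30, while ATP5F1B, the catalytic subunit, did not pass (adjusted p = 0.162). With the GC and length offset 11 and 15 were lower as well, at medians of -0.11 and -0.099. The counts moved with single libraries. For complex I leaving out HA-TRIM15 replicate 1, 2 or 3 gave 17, 7 and 5 lower, and leaving out EV replicate 2 or 3 gave 4 and 3. For complexes III to V there were 20 without HA-TRIM15 replicate 1, 8 without HA-TRIM15 replicate 2 or EV replicate 1, and 7 without EV replicate 2.

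FOXRED1, an assembly factor of complex I and the gene on which the study converged, had 31.5, 33.1 and 29.5 CPM with HA-TRIM15 and 36.6, 36.7 and 37.4 CPM with EV. All HA-TRIM15 libraries lay below all EV libraries, and the log2 difference was -0.24 (SE 0.0522, adjusted p = 0.00509). With the GC and length offset it was -0.19 (adjusted p = 0.00793). The call held in every fit that left out 1 library, with adjusted p between 0.00239 and 0.0293. Of 19 assembly factors 4 were lower (21.1%) and none higher, with a median of -0.044, and 5 were lower with the GC and length offset. The others of the 4 were ACAD9, which works in the same assembly complex as ECSIT, at -0.21, ECSIT at -0.24, and DMAC1, a factor of the membrane arm, at -0.42 with 217 to 417 counts against 457 to 639.

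The study's other genes gave a mixed picture. YY2 had 32, 19 and 28 counts with HA-TRIM15 and 33, 30 and 33 with EV, or 1.52 ± 0.269 and 1.39 ± 0.207 CPM (SD, n = 3), a log2 difference of 0.14 with an SE of 0.212 (adjusted p = 0.687). At this depth only a large difference in YY2 RNA could be detected, and its protein is not measured by these data. YY1, the ubiquitous relative from which YY2 derives, had 155 ± 2.48 and 144 ± 3.14 CPM (log2 difference 0.10, adjusted p = 0.0418), a call lost in 5 of the 6 fits that left out a library. MTOR stood at 96.0 ± 4.06 and 96.7 ± 0.710 CPM (adjusted p = 0.851), and its sign turned without HA-TRIM15 replicate 1. WARS1, a tRNA synthetase induced by interferon, rose by 0.23. GPX4, the peroxidase that prevents ferroptosis, was lower at -0.16 (adjusted p = 0.0406), with 164, 139 and 138 CPM against 163, 168 and 163 CPM. HA-TRIM15 replicate 1 lay within the EV range and the GC and length offset moved the difference to -0.02 (adjusted p = 0.658). Of 22 genes listed around the study's account, YY1 included as a relative of YY2, 19 were tested, with 6 higher, TRIM15 among them, and 5 lower. The GC and length offset gave 7 and 5.

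Genes of ferroptosis, cell death by oxidized lipids, split in both directions, with 9 of 30 higher and 6 lower, and with the GC and length offset 8 higher and 9 lower. PTGS2, cyclooxygenase 2 and a marker of both inflammation and ferroptosis, rose by 0.63, from 44.4 to 46.5 CPM with EV to 68.0 to 73.1 CPM with HA-TRIM15. The ferritin chains parted, FTH1 rising by 0.17 and FTL lower at -0.28. NFE2L2, the antioxidant factor NRF2, rose by 0.20, while its inhibitor KEAP1 was lower at -0.25 and its target NQO1 at -0.18.

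In lipid metabolism some genes of the cholesterol pathway rose. HMGCS1, which makes HMG-CoA, reached 99.8, 108 and 101 CPM against 70.7, 71.1 and 71.3 CPM, a log2 difference of 0.53 (SE 0.0403, adjusted p = 3.52e-07). INSIG1, a feedback sensor of sterols, rose by 0.49. Of 32 cholesterol genes 13 were higher and 3 lower, with a median of 0.053. The GC and length offset gave 10 higher and 1 lower, and without EV replicate 1, 2 or 3 there were 7, 8 and 8 higher. SREBF1, the regulator of fatty acid synthesis, was lower at -0.32, and FASN, fatty acid synthase, did not pass (adjusted p = 0.063), with 375, 317 and 315 CPM against 370, 369 and 374 CPM. Among 21 genes that build fatty acids 4 were higher (19.0%) and 2 lower (9.52%). Among 26 of triglyceride storage and lipolysis there were 6 (23.1%) and 2 (7.69%), and among 23 of beta-oxidation 2 (8.70%) and 4 (17.4%). Over all genes tested 12.5% were higher and 9.53% lower. After the GC and length offset the counts of these lists were 2 and 2, 6 and 2, and 2 and 2. G0S2, an inhibitor of lipolysis, rose by 0.51, and DGAT1, the enzyme of the last step to triglycerides, was lower at -0.21, a call that ended with the GC offset. PLIN2, the coat protein of lipid droplets, had 140 ± 4.82 and 145 ± 2.32 CPM (adjusted p = 0.394). CPT1A, which admits fatty acids to mitochondria, rose by 0.12 and HADH, a beta-oxidation enzyme, was lower at -0.19. In sphingolipid metabolism 7 of 26 were higher and 1 lower, with SGMS1 and SGMS2, which make sphingomyelin, at 0.44 and 0.35, UGCG, which makes glucosylceramide, at 0.36 and the ceramide carrier CERT1 at 0.24. The 7 became 6 with the GC and length offset, 11 without HA-TRIM15 replicate 1 and 4 without EV replicate 3.

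Among the genes with the largest differences several were close to the limit of detection. KLKP1, a kallikrein pseudogene, had 52, 34 and 29 counts with HA-TRIM15 and 0, 1 and 2 with EV, and its reads could in part belong to near-identical kallikreins. H2BC8 and H2BC9, histone genes of a repeated cluster, had 96 to 111 against 15 to 24 counts and 39 to 68 against 13 to 22 counts. CDK7, a kinase of transcription and the cell cycle, had 364 counts in HA-TRIM15 replicate 2 and 40 to 51 in the other 5 libraries, and without that replicate its log2 difference of 2.26 fell to 0.41 (adjusted p = 0.224). CAMK1G, a calcium-dependent kinase, rose by 1.92 with 46 to 51 against 12 to 20 counts. Among the genes that fell, NSF, which recycles the membrane fusion machinery, had 9, 9 and 4 counts against 47, 79 and 25. FAM120B and ERMARD had 6 to 8 against 22 to 57 and 24 to 74 against 139 to 233 counts. RN7SL1, the RNA of the signal recognition particle, which has many copies, had 31 to 97 against 166 to 290 counts.

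Other members of the TRIM family did not share a direction. Of 38 tested 6 were higher (15.8%) and 5 lower (13.2%), beside 12.5% and 9.53% of all genes. The median was -0.016, and with the GC and length offset 4 were higher and 5 lower. Without HA-TRIM15 replicate 1 there were 8 higher and 10 lower, and without EV replicate 2 there were 2 and 2. TRIM25, a ligase of the viral RNA sensor pathway, rose by 0.11, TRIM36 by 0.33, and TRIM28, a corepressor, was lower at -0.18, which did not pass with the GC offset.

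The vector and the time of the EV group are not those of the other control cells of the series, so levels were also set beside the 2 shControl groups of OE33, collected 72 h after transfection with other vectors. These are levels without a test, normalized over 15 libraries. TRIM15 was at 0 in all 9 control libraries. ATF3 had 140 ± 4.61 CPM with HA-TRIM15 and 41.0 ± 0.696 with EV, 132 ± 0.276 in the shControl cells of the YY2 experiment and 24.9 ± 0.355 CPM in those of the FOXRED1 experiment (SD, n = 3). TXNIP stood at 567 ± 11.8, 194 ± 5.34, 566 ± 12.2 and 259 ± 9.29 CPM in the same order. For both genes the shControl cells of YY2 lay near the HA-TRIM15 level and those of FOXRED1 near the EV level. CXCL8 had 76.4 ± 1.74, 26.6 ± 1.02, 99.97 ± 4.53 and 35.4 ± 2.57 CPM, and TNFAIP3 1343 ± 11.1, 875 ± 22.5, 1365 ± 31.4 and 385 ± 1.98 CPM. For TXNIP, CXCL8 and TNFAIP3 the HA-TRIM15 level lay within the range of the control cultures, and for ATF3 all HA-TRIM15 libraries lay above all control libraries, by a small margin. SERPINB2, an inhibitor of urokinase, had 230 ± 6.71, 124 ± 2.49, 69.4 ± 0.731 and 20.1 ± 0.439 CPM, above every control library, as did EREG with 2072 ± 106, 1541 ± 32.9, 1399 ± 63.5 and 963 ± 31.2 CPM. FOXRED1 had 31.7 ± 1.89, 38.5 ± 1.49, 31.9 ± 0.842 and 16.8 ± 0.334 CPM, so that with HA-TRIM15 it was below EV and close to the shControl cells of YY2. Of the 1973 genes higher than EV, 404 (20.5%) had all 3 HA-TRIM15 libraries above all 9 control libraries, and of the 1501 lower genes 224 (14.9%) had them below. Among genes not called, 1.31% of the 5663 with a fitted change above 0 lay above, and 4.34% of the 6608 with one below 0 lay below. The 9 libraries include the 3 EV libraries by which genes were called. A higher share among called genes therefore follows in part from how they were picked. How much of the differences between control cultures comes from vector, time or culture cannot be told apart.

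**Figure D3:**
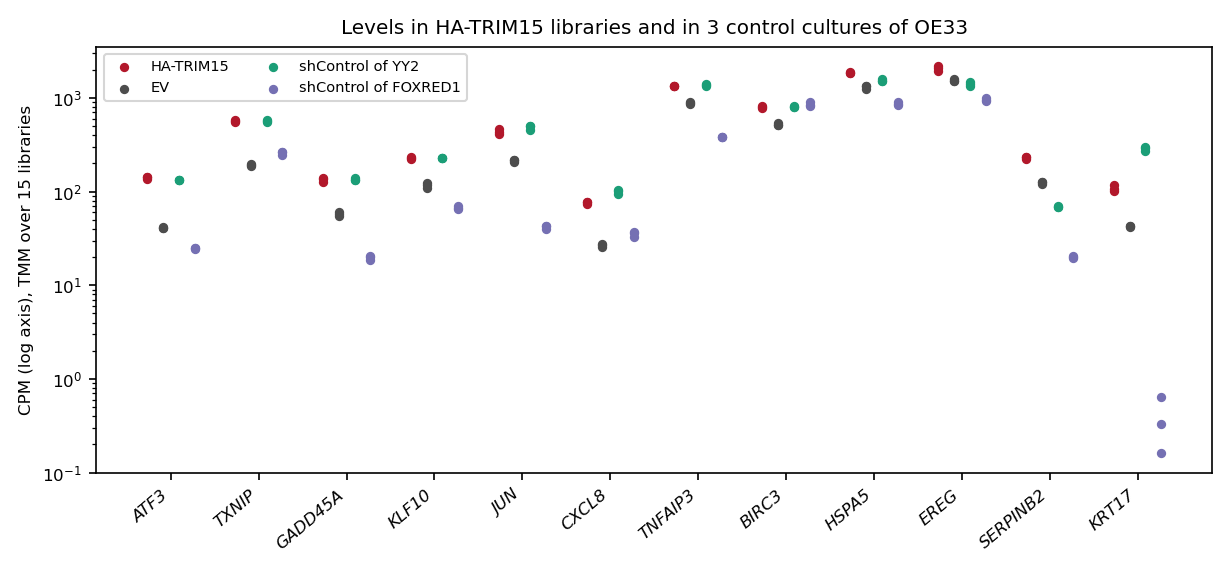
Level of 12 genes that rose with HA-TRIM15, in CPM on a log axis, in the HA-TRIM15, EV, shControl of YY2 and shControl of FOXRED1 libraries of OE33 (3 points per group). The green points of the shControl of YY2 lie beside or above the red points of HA-TRIM15 for TXNIP, GADD45A, KLF10, CXCL8, TNFAIP3 and KRT17, while for EREG and SERPINB2 the red points are the highest.

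Knockdown of YY2 with shYY2 is the experiment of the series closest to HA-TRIM15 in its target, since the study places YY2 under TRIM15, and the difference between the 2 effects was tested over their 12 libraries. The experiments have separate controls and differ in vector and in time, 48 h for HA-TRIM15 and EV and 72 h for shYY2 and its shControl. The 2 control groups also differ in level, as given above for CXCL8 and FOXRED1. How much of a difference between the effects comes from vector, time or the level in the controls was not tested. YY2 RNA was lower with shYY2 (log2 difference -1.81) and not detectably changed with HA-TRIM15 (0.14), a difference of 1.96 (SE 0.297, adjusted p = 6.60e-06). The effects differed for 64.4% of 16674 genes, the HA-TRIM15 effect lying above for 34.1% and below for 30.3%, so single genes that differ are common. With shYY2 alone 35.7% of these genes were higher and 37.2% lower than in shControl.

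Several gene lists with a positive median under HA-TRIM15 had a negative one under shYY2, and others did not. CXCL8 was at 1.56 with HA-TRIM15 and -3.58 with shYY2, a difference of 5.14 (SE 0.0720, adjusted p = 1.00e-21). TNFAIP3 was at 0.66 and -1.98 and HSPA5 at 0.54 and -2.17. Of 14 chemokines tested 11 differed with HA-TRIM15 above and none below, with list medians of 0.49 and -1.38. Of the 30 unfolded protein response genes 26 lay above and 2 below, with medians of 0.17 and -0.60, and of the 26 ATF4 genes 19 and none, with medians of 0.18 and -0.62. Among AP-1 and immediate early factors both medians were positive, with 6 above and 17 below and medians of 0.21 and 0.60, FOS being at -0.60 and 1.94 and ATF3 at 1.82 and 0.20. The interferon-stimulated genes had medians of 0.087 and 0.31, with 17 of 62 above and 32 below, and 37 were higher with shYY2 and 15 lower. Medians were also positive in both experiments for the damage response targets (0.12 and 0.033), sphingolipid metabolism (0.052 and 0.035), the matrix proteases (0.088 and 0.11), the epithelial-mesenchymal list (0.062 and 0.12) and the BCL2 family and caspases (0.052 and 0.099).

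Lists with a negative median under HA-TRIM15 varied as well. Of 57 replication genes 54 differed with the HA-TRIM15 effect above, at medians of -0.11 and -1.33, PCNA being at -0.26 and -2.19. Of the 19 assembly factors of complex I 15 lay above and 2 below, with medians of -0.045 and -0.56, and FOXRED1 was at -0.24 and -0.89, a difference of 0.65 (SE 0.0829, adjusted p = 6.35e-07). For NDUFS3 the effects of -0.29 and -0.34 did not differ beyond their error (difference 0.05, SE 0.0777, adjusted p = 0.599). Of the 34 subunits of complex I 10 lay above and 11 below, with medians of -0.14 and -0.12. Of the 35 genes of complexes III to V 11 lay above and 12 below, with medians of -0.12 and -0.13. Of the 13 pentose phosphate and NADPH genes 4 lay above and 5 below, with medians of -0.087 and -0.093. These lists lay near the shares over all genes, 34.1% above and 30.3% below. Beta-oxidation had medians of -0.045 and 0.17, with 3 of 23 above and 14 below. GPX4 went from -0.16 with HA-TRIM15 to 0.84 with shYY2. SLC7A11 was at 0.07 and -0.88. Its partner SLC3A2 was at 0.34 and -1.40, a difference of 1.74 (SE 0.0542, adjusted p = 1.26e-16).

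**Figure D4:**
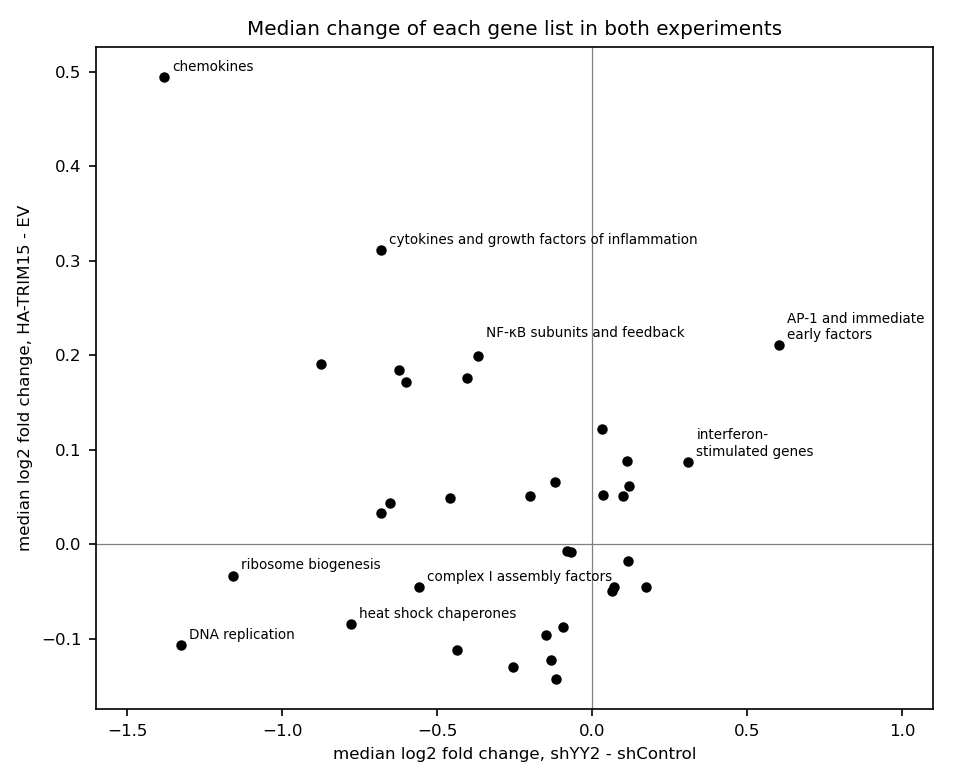
Median log2 difference of each gene list with shYY2 against shControl (horizontal axis) and with HA-TRIM15 against EV (vertical axis), 1 point per list. Chemokines lie at -1.38 and 0.49 in the upper left, DNA replication at -1.33 and -0.11 in the lower left, and AP-1 and immediate early factors at 0.60 and 0.21 in the upper right.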

How the data were processed

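The deposited tables hold counts of reads per Ensembl gene, which the authors made from poly-A selected paired-end libraries. The submitters' processing notes name the builds hg 38 and mm 10. The aligner and annotation are not given in the sources used here, and the labels and the methods name different library kits, so whether strand was used is unsettled and overlapping genes are uncertain. Of 61860 identifiers 42054 (68.0%) had a gene name. No comparison of the authors was used, and 9 columns of values were not used.

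HA-TRIM15 was compared with EV by edgeR 4.0.16 with limma 3.58.1 in R 4.3.3. Genes passed filterByExpr (minimum count 10, total 15), libraries were scaled by TMM, and the quasi-likelihood test was adjusted by Benjamini-Hochberg at 0.05. The same model over 12 libraries tested the difference from shYY2. An exact permutation test of 3 against 3 cannot go below 0.1. DESeq2 1.42.0, other filters, size factors, left-out libraries and a replicate block were alternatives, and offsets for GC content and length of the longest GENCODE transcript, known for 98.2% of tested genes, were added after seeing the data. Motif shares use RefSeq promoters. The members and lists were chosen with earlier results of these data known. Named genes are those on a list built around the study's account, the 10 largest rises and 10 largest falls among called genes (mean of at least 1 CPM, no overlap, not on the hepatocyte list), and in each list up to 6 called members per direction by p and up to 4 not called by level; a few of these are not reported here. Tested on simulated data for this comparison, the model recovered 25 of 50 genes changed 1.2-fold, 34 of 50 at 1.5-fold, 48 of 50 at 2-fold and 50 of 50 at 4-fold, and called 11 unchanged genes among 15745. The simulated counts held no GC trend between the groups and no library that deviated from its group as a whole. The real libraries have both, so the 11 is not a measure of false calls in them. Intervals and limits from counts cover counting error only.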

Additional observations from a re-analysis of the deposited data

How the results depend on the processing

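Leaving out 1 library gave 1247 to 2594 genes higher and 787 to 2506 lower: the most without HA-TRIM15 replicate 1 and the fewest without EV replicate 3. Without HA-TRIM15 replicate 2 there were 1443 and 800, without HA-TRIM15 replicate 3 1564 and 1020, without EV replicate 1 1321 and 855, and without EV replicate 2 1295 and 891. The cause was not tested. A fold change of at least 1.5 left 209 higher and 87 lower genes, by construction fewer. DESeq2's Wald test gave 1437 and 1002, and no filter on low counts 1779 and 1914. Fits with the replicate block gave 1964 and 1625, and same-numbered replicates did not deviate together (correlations 0.0047, -0.0096 and -0.012), so the numbers were not taken as pairs.

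The log2 difference turned sign, without passing in the original fit, for SLC7A11 with the GC offset (-0.047) and the GC and length offset (-0.068), MTOR without HA-TRIM15 replicate 1 (0.023, leave-one-out range -0.036 to 0.023) and with the GC offset (0.019), NDUFV2 without HA-TRIM15 replicate 1 (range -0.076 to 0.23), IL18 (-0.019), FOSL2 (0.0085) and FASN (0.0043) with the GC offset, and KRT19 with the GC offset (0.035) and both (0.049). TRIM15 and several low genes such as KLKP1 and NSF have no value when every library must hold 10 counts. Depth limits genes near that level, YY2 among them.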

Other observations

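Several keratins differed between the groups. KRT17, a keratin of basal and stressed squamous cells, had 117, 105 and 101 CPM with HA-TRIM15 and 42.6, 41.2 and 39.5 CPM with EV, a log2 difference of 1.39 with no overlap (adjusted p = 1.71e-10 by edgeR's quasi-likelihood test). KRT14, of the basal layer, rose by 1.45 from 1.85 to 5.08 CPM, and SPRR2A, of the cornified envelope, by 0.85. Normalized over 15 libraries and without a test, KRT17 had 109 CPM with HA-TRIM15, 288 in the shControl cells of YY2 and 0.376 in those of FOXRED1. In the same order KRT14 had 5.14, 6.14 and 0.0356 CPM. For both genes the HA-TRIM15 level lay within the range of the control cultures, and SPRR2A lay above every control library. KRT18 and KRT8, the pair of simple epithelia, were lower at -0.17 and -0.13. KRT19 did not pass, and its sign turned with the GC offset. GATA6, a factor of columnar gut epithelium, rose by 0.58, while FOXA2, a factor of foregut endoderm, was lower at -0.33. Of 36 lineage genes tested 13 were higher and 4 lower, with a median of 0.18, and with the GC and length offset 17 and 4.

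Some proteases of the cell surface and their inhibitors were higher as well. SERPINB2, which inhibits urokinase, had 219, 231 and 231 CPM against 120, 121 and 118 CPM, a log2 difference of 0.93. Urokinase itself, PLAU, rose by 0.31 and its receptor PLAUR by 0.44, and the matrix proteases MMP1 and MMP10 by 0.19 and 0.87. Of 19 genes of this group 7 were higher and 2 lower (7 and 1 with the GC and length offset), and of 7 serpins of the SERPINB cluster 4 and 1. INHBA, which encodes a chain of activin, rose by 0.70 and LAMB3, a laminin chain, by 0.61, while the growth factor BMP4 and its target ID1 were lower at -0.38 and -0.29. CDH1, E-cadherin, rose by 0.23. Among 34 genes of the epithelial-mesenchymal and TGF-β response 15 rose and 6 fell (median 0.063).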
